A study of Gallus gallus with 2 samples.

Results

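POT1, TERF1, TERF2, TERF2IP and TERT are genes of the proteins that bind and extend the ends of chromosomes, and their transcripts were compared between DT40 cells carrying H2A.Z.1 and DT40 cells carrying the mutant H2A.Z-R80C. The 5 genes were listed by symbol because earlier results of these data had shown a difference at POT1, so the difference between the arrays took part in the choice and is given here as a description, without a test. Of the 5 genes, 4 had a probe that could be named, with 35 probes in all, and TERF2IP had none. All 35 probes lay well above background on both arrays. They stand among 43603 probes on the array, of which 30199 were measured (well above background on both arrays), and among 4326 named genes measured on both arrays.

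DT40 is a chicken B cell line. H2A.Z, a variant of the histone H2A, sits in a fraction of nucleosomes, and R80C is a cancer-associated substitution in it. In both groups the cells were H2A.Z double knockouts grown in DMEM without tetracycline. The first group stably expressed FLAG-tagged H2A.Z.1 and the second FLAG-tagged H2A.Z-R80C, and each group was 1 culture on 1 array, with both arrays on the same slide and from the same scan. The sources used here do not say whether each line came from 1 clone. The study was concerned with how the mutation affects nucleosomes and mitosis. Neither group had a replicate, so no test was run and no p-value is given, and every difference below describes these 2 arrays.

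Telomeres are repeats at chromosome ends that are covered by the shelterin complex. In vertebrates TERF1 (TRF1) and TERF2 (TRF2) bind the double-stranded repeats, POT1 binds the single-stranded overhang, and TERF2IP (RAP1) joins the complex through TERF2. POT1 shields the overhang from the DNA damage kinase ATR and takes part in regulating telomerase, the reverse transcriptase whose catalytic subunit is TERT, and telomerase is active in many B cell lines and tumours. The sequences of the array probes and of the genes were not used here, so none is printed.

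The arrays were alike in quality, with 70.1% (H2A.Z.1) and 71.5% (R80C) of spots well above background, no saturated spot, and a 75th percentile of the signal of 1078 and 1055, in that order. Each array was scaled by its 75th percentile, and differences are R80C minus H2A.Z.1 on the log2 scale of the scaled signal. The 4326 measured named genes had a median difference of 0.013 with an SD of 0.20 between genes. The differences of the probes of 1 gene had a pooled SD of 0.094 over 2776 genes with several measured probes. This spread comes from 1 culture per group, so it does not measure variation between replicate cultures. How much of it is technical was not tested. Of the 11 B cell markers listed, 8 had a named probe and all 8 were well above background on both arrays, among them CD79B, a chain of the B cell receptor. In bulk RNA a change in the number of cells of a type and a change in the RNA per cell cannot be told apart. Markers of other cells were also present. Of 5 T cell markers with a probe, 4 were above background on both arrays, with a summed signal of 40229 (H2A.Z.1) and 36412 (R80C), nearly all of it from CD3D, CD3E went from 234 to 65.0, and CD4 was not well above background on either array. The summed signal was 71.1 and 59.0 for 3 myeloid markers, 121.7 and 122.1 for 2 erythroid and thrombocyte markers, and 172 and 322 for 3 fibroblast markers, where COL1A2 gave 160.2 and 312, COL3A1 7.56 and 6.80, and THY1 4.13 and 3.51. These marker signals are means over all named probes of a gene, also those not well above background, and the sums are of such means. On each array 2 of 10 COL3A1 probes and 1 of 4 THY1 probes were well above background. For CD3E it was 3 of 3 probes with H2A.Z.1 and 2 of 3 with R80C. The part of these markers in the differences below was not tested.

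POT1 was the member with the largest difference between the arrays. POT1 (RefSeq transcript NM_206992) was read by 5 probes, and all 5 were brighter on the R80C array. The mean difference over the 5 probes was 0.62 with an SD of 0.14 between probes, or 1.53-fold, and the range was 0.42 to 0.80, or 1.33-fold to 1.74-fold. Of the 4 members with a probe, POT1 alone reached 1.5-fold, against a background of 0.670% of named genes at least 1.5-fold higher in R80C cells. Because POT1 had been chosen for this difference, nothing is read from that share. The same holds for the shares, ranks and percentiles of POT1 given below, which only describe where it stands.

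The brightest POT1 probe, A_87_P035140, went from a processed signal of 4688 ± 469 with H2A.Z.1 to 6997 ± 699.7 with R80C, where the error is Feature Extraction's own estimate for the spot. Its difference was 0.61. The next, A_87_P191973, read 941 ± 94.2 and 1451 ± 145, a difference of 0.66. These probes thus differed by similar amounts although their signals lay far apart, which reflects the probe as well as the transcript, so levels of different probes are not compared. A_87_P106108 read 194 ± 19.5 and 290.4 ± 29.1, a difference of 0.61. A_87_P310807 had the smallest difference, 0.42, from 142.7 ± 14.4 to 186 ± 18.7. The dimmest probe, A_87_P116568, had the largest, 0.80, from 37.8 ± 4.19 to 64.4 ± 6.61. The R80C array was the higher one at each of the 5 probes, and 4 of the 5 reached 1.5-fold, against 0.775% of all measured probes in that direction.

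**Figure D1:**
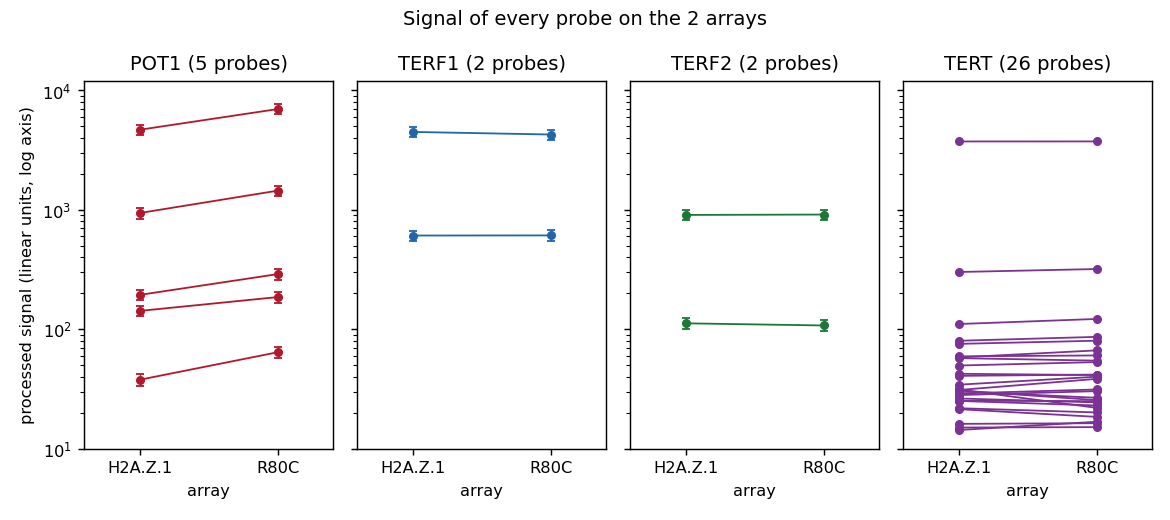
Processed signal (linear units on a log axis) of every probe of POT1, TERF1, TERF2 and TERT on the H2A.Z.1 and R80C arrays, with 1 line per probe; bars for POT1, TERF1 and TERF2 are Feature Extraction's error estimates of the spot, and those of TERT are left out for clarity. All 5 POT1 lines rise from H2A.Z.1 to R80C, while the lines of the other genes are close to level or cross at low signal.

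The spot errors are estimates of Feature Extraction and do not come from replicate arrays. At the POT1 probes they were nearly proportional to the signal, so the units below largely follow the fold. Expressed in units of the combined error of its 2 spots, the difference between the unscaled signals of a POT1 probe ranged from 1.85 to 3.39. Over the array, 1.15% of the measured probes (348 of 30199) lay at or above the lowest of these values. The 5 spots lay in rows 110 to 498 and columns 11 to 59 of the array, and the median difference of the measured spots within 10 rows and 10 columns of each lay between -0.0019 and 0.0085.

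Spread between the arrays depended on brightness. When measured probes were ordered by mean signal and divided into 10 classes of equal size, the SD of the difference was 0.35 in the dimmest class and 0.086 in the brightest. The 5 POT1 probes fell in 5 different classes (the third, the fourth, the fifth, the seventh and the ninth from the dimmest), and each lay above the 95th percentile of its own class. In the class of its brightest probe, 2 of 3020 probes, or 0.0662%, reached 1.5-fold toward R80C: this POT1 probe and a probe for an Ensembl transcript without a gene name here. In the classes of the other POT1 probes the share was 0.795%, 0.695%, 0.430% and 0.430%, from dim to bright. A high place of the POT1 probes was built into the choice of the gene, so nothing is read from these places or shares. The 2 probes of TERF1, the 2 of TERF2 and the 26 of TERT all lay between the 5th and the 95th percentile of their classes.

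**Figure D2:**
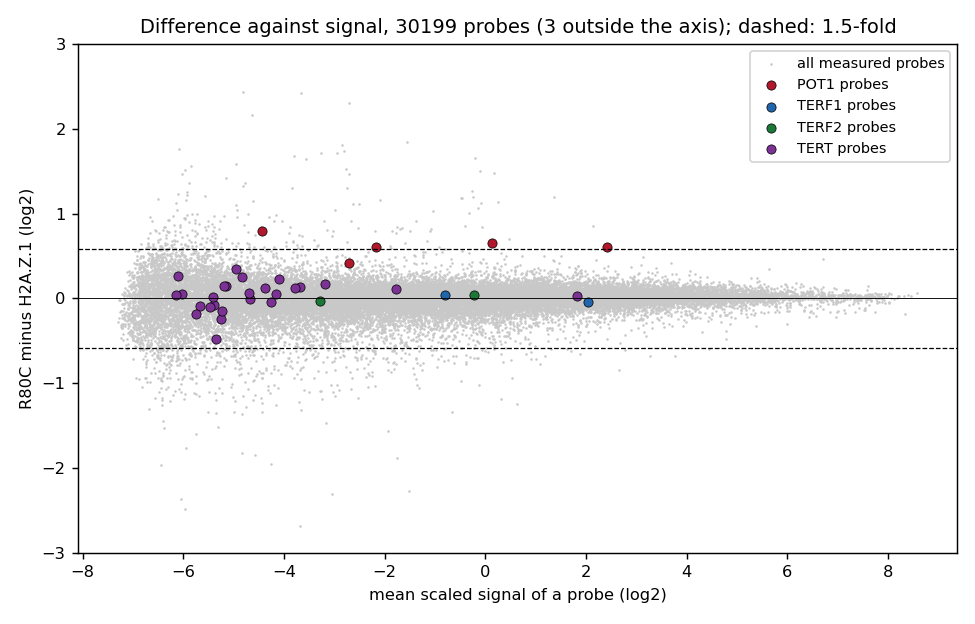
R80C minus H2A.Z.1 (log2, vertical axis) against the mean scaled signal of the probe on the 2 arrays (log2, horizontal axis) for 30199 measured probes in grey, with the probes of POT1, TERF1, TERF2 and TERT in colour and dashed lines at 1.5-fold. The grey cloud narrows toward bright probes; 4 of the 5 POT1 probes lie above the upper dashed line, and no probe of the other 3 genes reaches either line.

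Among named genes, POT1 was the 26th highest of 4326. Of the 217 genes with at least 5 measured probes POT1 had the highest difference and the second largest in either direction. The genes on either side of it were chosen after their values were seen: SLCO4A1, an organic anion transporter gene, was next with 0.56 over 5 probes, and FRZB, a secreted Wnt antagonist gene, had the largest difference in either direction, at -0.77 over 5 probes. POT1 and 1 other gene of the 217 had every probe at least 1.2-fold higher in R80C cells, and 1 gene had every probe at least 1.2-fold lower.

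The genes with a difference closest to that of POT1 were ranked by distance on the log2 scale, over the 2 arrays only. ETV1, an ETS transcription factor gene, was nearest with 0.62, but its 2 probes stood at 0.033 and 1.21. PI15, a secreted peptidase inhibitor gene, followed on the higher side with 0.66 and 1 probe, and IRF1, an interferon-responsive transcription factor gene, with 0.67 and 1 probe. On the lower side were LGALS1B, a galectin gene, at 0.60 with 1 probe, AMPD3, an AMP deaminase gene, at 0.60 with 2 probes, and LOC426957 at 0.59 with 1 probe. The signals of these 6 genes ran from 10.1 (LGALS1B) to 66.6 (LOC426957) in H2A.Z.1 cells. All 6 were thus dim, and in the 3 dimmest signal classes the SD between arrays was 0.25 to 0.35.

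POT1 was also set beside the measured named genes nearest to it, taken in the order of a RefSeq table of assembly GRCg7b. Apart from GPR37 they were not adjacent: from 3 (ZNF800) to 18 (TRABD) other genes lay between them and POT1. The 8 nearest measured named genes, 4 on each side, had differences between -0.15 and 0.21 with a median of -0.012. GPR37, a G protein-coupled receptor gene, directly follows POT1 in the table and stood at -0.15, with a mean signal of 521 (H2A.Z.1) and 460.5 (R80C). WASL, an actin nucleation gene, was the highest neighbour at 0.21, with 1365 and 1516. ZNF800, the nearest measured gene on the other side, stood at -0.015, followed by MAPK11 at 0.043, SELENOO at -0.075 and TRABD at -0.0098. Beyond WASL lay NDUFA5, a subunit gene of respiratory complex I, at -0.0019 and ATP6AP1, a proton pump accessory gene, at -0.057. None of the 8 reached 1.5-fold in either direction, where 1.94% of all named genes did, so nothing is read from this count.

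**Figure D3:**
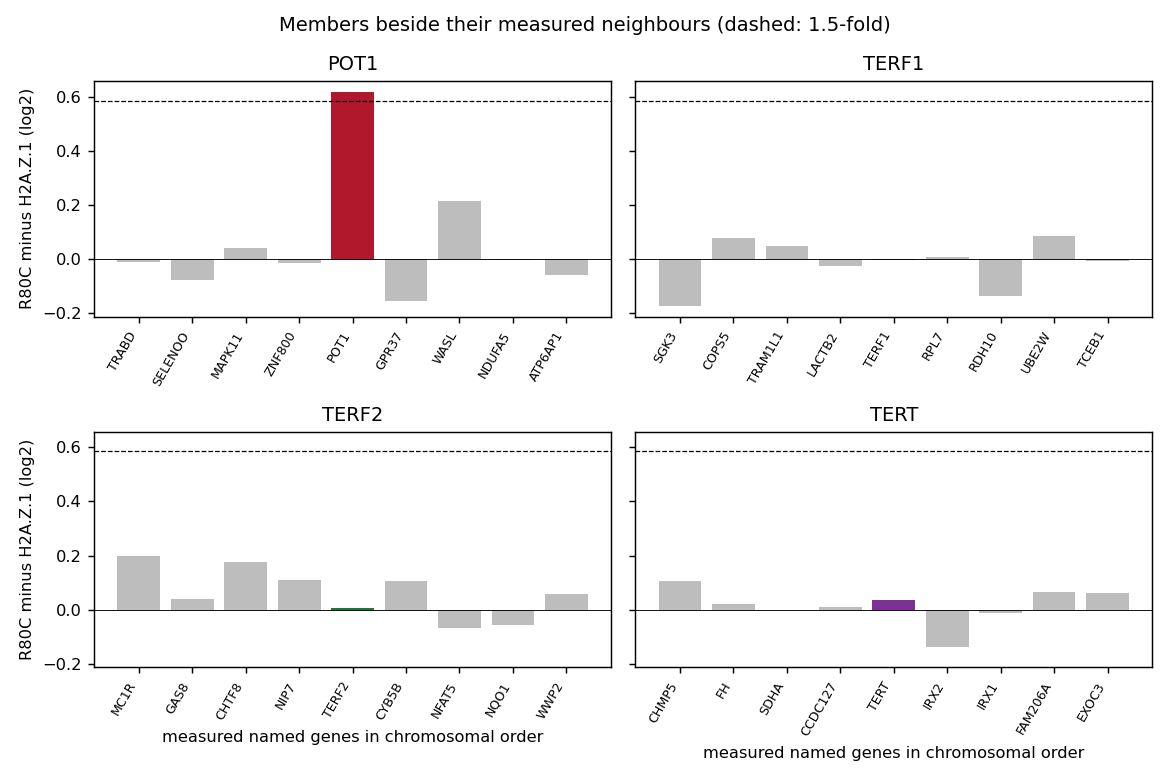
R80C minus H2A.Z.1 (log2) of POT1, TERF1, TERF2 and TERT (coloured bars, mean of the probes) and of the 4 nearest measured named genes on each side in chromosomal order (grey bars), with a dashed line at 1.5-fold. The POT1 bar stands at 0.62 among neighbours between -0.15 and 0.21.

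The genes of the double-strand binding subunits did not share the POT1 difference. TERF1 (NM_204380) was read by 2 probes, at 4499 ± 449.9 with H2A.Z.1 and 4278 ± 428 with R80C for the brighter and 610.3 ± 61.1 and 612 ± 61.2 for the dimmer. Their differences were -0.042 and 0.034, with a mean of -0.0037. TERF2 (NM_001271892) was also read by 2 probes, at 908 ± 90.8 and 915 ± 91.5 for the brighter and 112 ± 11.4 and 107.8 ± 10.9 for the dimmer. The differences were 0.041 and -0.029, with a mean of 0.0060. In both genes 1 probe was above 0 and 1 below, each difference was within 0.355 of the combined spot error, and the means were smaller than the pooled SD of 0.094 between probes of a gene. The sign of values this small changed with the setting: TERF1 ran from -0.024 after spike-in scaling to 0.034 after scaling on the array median, with -0.042 for its brightest probe, and TERF2 ran from -0.014 after spike-in scaling to 0.046 after normexp with quantile normalization.

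TERT (NM_001031007), the catalytic subunit of telomerase, was read by 26 probes, all of them measured, and no named gene had more measured probes. The signals of the TERT probes in H2A.Z.1 cells ran from 14.4 through a median of 31.2 to 3743. In R80C cells they ran from 15.2 through 34.9 to 3746. One probe was far brighter than all others. That probe, A_87_P117098, read 3743 ± 374 with H2A.Z.1 and 3746 ± 375 with R80C, a difference of 0.032, so the arrays were alike at the TERT probe with the most signal. The sources used here do not say which part of the transcript each probe reads.

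The mean difference over the 26 TERT probes was 0.036, with an SD of 0.18 between probes, and none reached 1.5-fold in either direction, where 2.41% of all measured probes did. Of the 26, 17 were above 0 and 9 below, where 53.2% of all measured probes were above 0. The probes disagreed most at low signal. The 18 probes under 50 in H2A.Z.1 cells had a mean of 0.0068 with an SD of 0.20, and ranged from -0.48 to 0.34. Both ends of that range were dim: A_87_P128828 read 31.4 ± 3.70 with H2A.Z.1 and 22.0 ± 2.75 with R80C, and A_87_P103478 read 31.1 ± 3.40 and 38.5 ± 4.02. The 5 probes with a signal from 50 to under 100 had a mean of 0.10 with an SD of 0.099, and the 3 probes of at least 100 had a mean of 0.11 with an SD of 0.071. All 3 of the latter were above 0, at 0.032, 0.11 and 0.17. In the second dimmest of the 10 signal classes, the 14 TERT probes had an SD of 0.21, against 0.31 for the 3020 probes of that class. The class SD also holds differences between genes, so these are unlike measures. By SD between its probes, TERT ranked 7th highest of the 217 genes with at least 5 measured probes, whose median SD was 0.053. That rank takes no account of brightness.

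The nearest measured genes of TERF1, TERF2 and TERT lay in narrow ranges as well, with up to 36 other genes in between (EXOC3, for TERT). The 8 measured neighbours of TERF1 ranged from -0.17 to 0.085, those of TERF2 from -0.069 to 0.20 and those of TERT from -0.14 to 0.10. TERF1, TERF2 and TERT each lay within the range of their own neighbours, and POT1 lay above its own. POT1 was chosen for its high difference, so nothing is read from that contrast.

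Other telomere genes were taken from 5 lists. The naming table held 69 of their genes and did not match 7 further names, some of them older names of listed genes. Of the 69, no probe was named for 32, and 37 were measured, POT1, TERF1, TERF2 and TERT among them. Of the 37, 1 reached 1.5-fold, POT1, where 1.94% of all named genes did so in either direction. The 36 others had a median of 0.045, beside 0.013 for all named genes, and 26 of them were above 0, where 55.6% of all named genes were. The number of the 37 above 0 ranged from 24 after scaling on the spike-in probes to 31 after scaling on the array median, since most values lay close to 0. These scalings also moved the median of all named genes, to -0.0066 (spike-in probes) and 0.051 (array median). The share of all named genes above 0 under them is not given here. The median difference of measured probes was -0.0062 in the dimmest signal class and 0.024 in the brightest. The telomere genes were not matched to all named genes by brightness. Nothing particular to the telomere genes is therefore read from 24 or 31, nor from the 26 above 0 or the median of 0.045.

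For each list the share to set beside its count above 0 is the 55.6% of all named genes. In shelterin itself 3 genes were measured, with a median of 0.0060, and 2 of 3 above 0. TERF2IP and ACD, the gene of TPP1, which ties POT1 to the rest of the complex, had no named probe, and TINF2, which links TPP1 to TERF1 and TERF2, was not matched in the naming table. The CST complex, which binds single-stranded telomere DNA and brings in the polymerase that fills in the complementary strand, was read with replication genes in a list of 7, with a median of 0.068 and 6 of 7 above 0. TEN1, a CST subunit, was highest at 0.20, with 815 (H2A.Z.1) and 920.1 (R80C) at its 1 probe. RPA2, a subunit of the general single-strand binding protein RPA, stood at 0.13 with 1 probe. The lowest were PRIM2, a primase subunit, at -0.11 with 3 probes, and DNA2, a nuclease and helicase, at 0.016 with 4 probes. CTC1 and STN1, the partners of TEN1, had no named probe.

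Telomerase and biogenesis genes gave 6 measured members, with a median of 0.053 and a highest value of 0.12. All 6 were above 0 in the 75th percentile scaling, where 55.6% of all named genes were. They were also above 0 under every other setting run, for which the share of all named genes is not given here. NVL, an ATPase of ribosome assembly that binds telomerase in human cells, was highest at 0.12 with 1 probe, and NHP2, a protein of the H/ACA particle that holds telomerase RNA, stood at 0.099 with 2 probes. TERT and PARN, a ribonuclease that trims telomerase RNA in human cells, were lowest at 0.036 and 0.045. The range of the list, 0.036 to 0.12, was about as wide as the pooled SD between probes of a gene.

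Factors that work with shelterin or signal from telomeres gave 16 measured genes with a median of 0.031, 10 above 0 and 6 below. TNKS2, a tankyrase that modifies TERF1 in human cells, stood at 0.16 over 5 probes, all above 0, with a range of 0.016 to 0.24. NR2F2, an orphan nuclear receptor, was highest at 0.24 but rested on 1 of 3 probes, with signals of 14.0 and 16.2. NBN, a subunit of the break-sensing MRN complex, was lowest at -0.20 with 1 probe (748 with H2A.Z.1 and 637 with R80C), followed by DCLRE1C, the nuclease Artemis, at -0.13 with 2 probes. No member of this list reached 1.5-fold in either direction. As only 1.94% of all named genes did, nothing particular to the list is read from that.

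Of 5 measured genes of single-strand binding and recombination, 3 were above 0, with a median of 0.0094. RAD51D, a recombination gene that acts at telomeres in mammalian cells, was the second highest of the 37 telomere genes after POT1, at 0.35 over 2 probes that stood at 0.34 and 0.35, with a mean signal of 2720 (H2A.Z.1) and 3388 (R80C). RAD52, a gene of strand annealing, stood at 0.046 over 2 probes. BRCA2, a recombination mediator, was lowest at -0.15 over 2 probes, and XRCC3, another recombination gene, stood at -0.035 over 3.

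**Figure D4:**
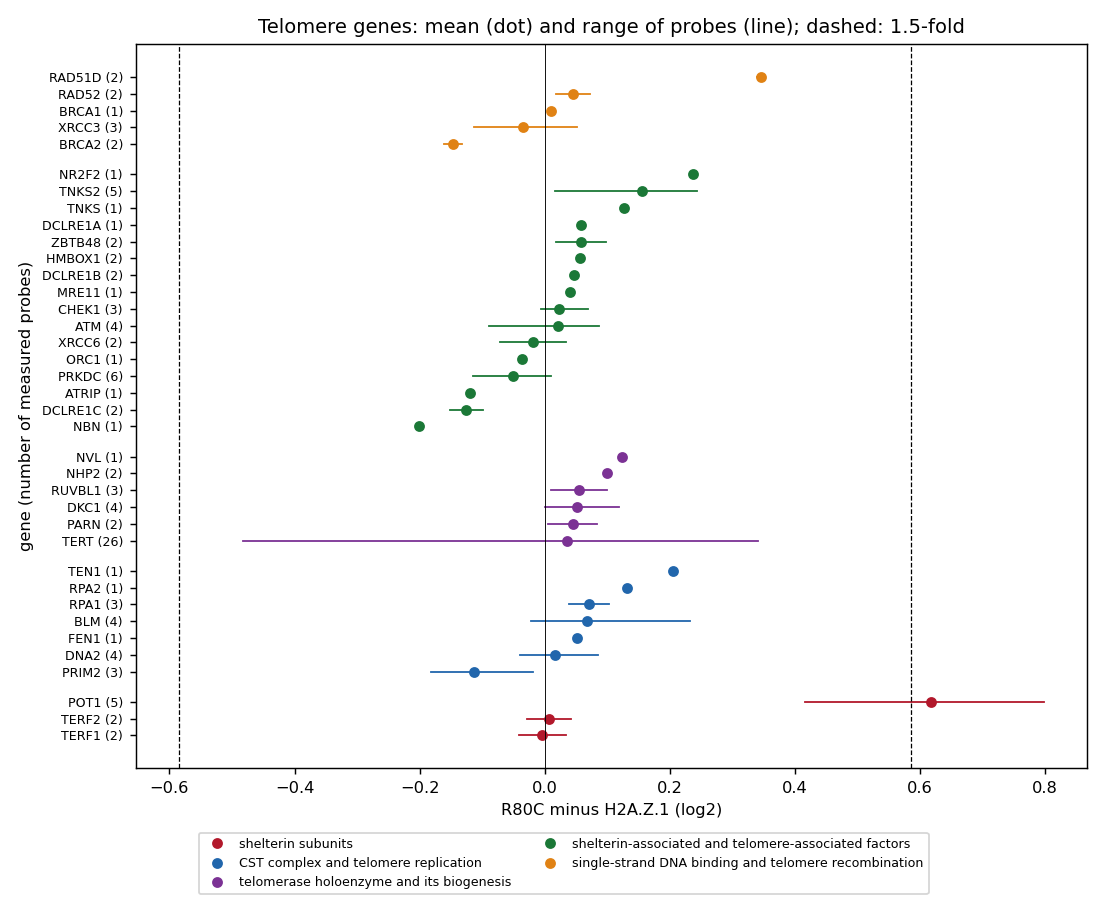
R80C minus H2A.Z.1 (log2) of 37 measured telomere genes, grouped in 5 lists by colour, with the mean of the measured probes as a dot, the range of the probes as a line, the number of measured probes in brackets and dashed lines at 1.5-fold. POT1 lies beyond the upper dashed line at 0.62, RAD51D follows at 0.35 and the other dots lie between -0.20 and 0.24.

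The POT1 call at 1.5-fold depended on the processing and on the probes. When the raw median signals were corrected by normexp with an offset of 50 and then quantile normalized, the mean fell under 1.5-fold, to 0.46 or 1.38-fold, with 0 of 5 probes at 1.5-fold and a range of 0.32 to 0.57. This setting changed the signal, the background correction, the offset and the normalization together, while quantile normalization alone gave 0.63. After normexp with quantile normalization the 5 probes were above 0, and the brightest stood at 0.57, or 1.48-fold. Under the other 6 scalings and sources, the 75th percentile among them, the mean was 1.51-fold to 1.58-fold with 4 of 5 probes at 1.5-fold. The median probe gave 0.61 and the brightest probe 0.61. Without its dimmest probe, A_87_P116568, the POT1 mean was 0.57, or 1.49-fold, also under the 1.5-fold line.

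**Figure D5:**
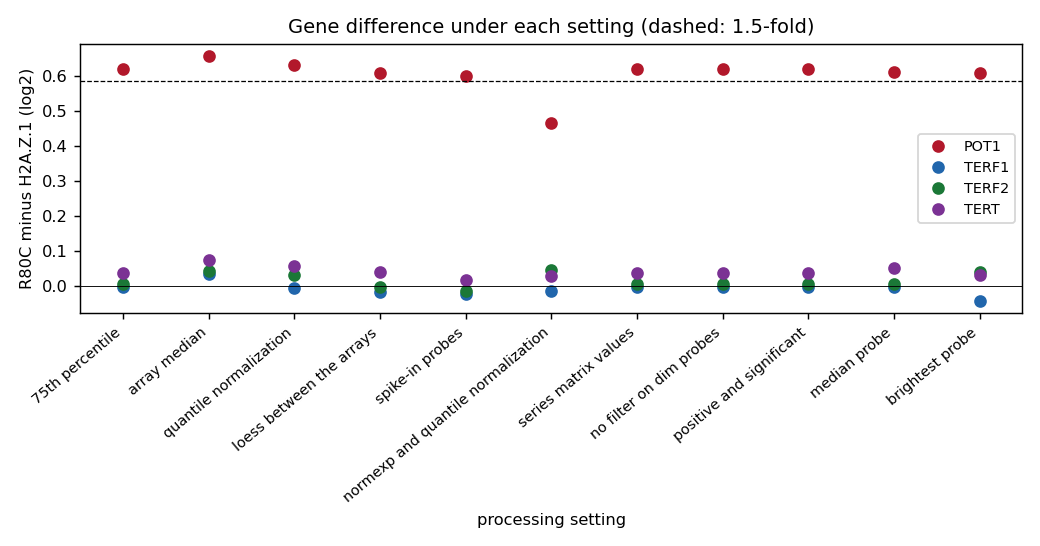
R80C minus H2A.Z.1 (log2) of POT1, TERF1, TERF2 and TERT under each of 11 processing settings, with a dashed line at 1.5-fold. Over these 11, POT1 lies above the dashed line except after normexp with quantile normalization, where it stands at 0.46; TERF1, TERF2 and TERT stay near 0 in all 11.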

How the data were processed

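Total RNA of 2 DT40 cultures was hybridised, after Cy3 labelling, to Agilent chicken arrays of 1 colour, per the labels' protocols. The scanner files deposited by the authors hold spot intensity on a linear scale from Agilent Feature Extraction 11.5.1.1, per the file headers: a processed intensity, background-subtracted within the array and not normalized between arrays, its error estimate, raw medians, and other values that are 0 or 1 flags. The deposited series matrix intensity equalled that processed signal multiplied by 1.50 (H2A.Z.1) and 1.51 (R80C), neither log-transformed nor centred (column medians 129.9 and 125.1); the basis of these factors is unknown.

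Each log2 processed signal was reduced by the log2 of its array's 75th percentile. A gene was the mean of its probes that were well above background, unsaturated and without an outlier flag on both arrays. Probes were named through the RefSeq accession, without version, in a table of assembly GRCg7b (11935 of 13060 matched, 5382 genes); per the file headers the array grid uses build galGal3, so no coordinates are given. limma 3.58.1 in R 4.3.3 made the quantile, loess and normexp alternatives. The calculation was tested on simulated data with the same noise at every brightness and every probe well above background. That setting differs from these arrays, so it says nothing about the precision of dim probes. With 1 array per group no test was run, and precision is limited by the number of arrays. The members and lists were chosen with earlier results of these data known. Named genes were the members, the 2 highest and 2 lowest of each list, the 3 nearest to POT1 on each side, and its neighbours. Of the genes listed, 1 is not reported here and was left out of the lists; their counts hold every other member, named in the text or not.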

Additional observations from a re-analysis of the deposited data

How the results depend on the processing

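The difference of POT1 moved by more than the pooled SD of 0.094 between probes under normexp with quantile normalization alone, to 0.46. Leaving out each POT1 probe in turn, an alternative chosen after seeing the data, gave 0.57 to 0.67, and without the dimmest, A_87_P116568, the mean was 1.49-fold, under the 1.5-fold line. TERF1, TERF2, TERT and the medians of the 5 telomere lists moved by less than that SD under every alternative run: TERT ranged from 0.016 to 0.11 (its highest value from probes with a signal of at least 100, also chosen after seeing the data), and the list medians from -0.039 to 0.11. Of 150 values for 15 other named telomere genes, 5 moved by more, 3 of them for NR2F2 and 1 each for PRIM2 and NBN. Scaling moved the median of all genes by at most 0.038. Of 4326 named genes, 29 were at least 1.5-fold higher and 55 lower, against 7 and 15 of 4326 after normexp. With no filter on dim probes the counts were 143 and 163 of 5382 genes. With the lenient detection flag they were 132 and 146 of 4796. These larger gene sets also hold genes with no probe well above background on both arrays. At 2-fold the counts, in the same order of settings, were 7 and 13, against 3 and 2, 52 and 45, and 43 and 37. Dim probes limit TERT most: 18 of its 26 probes read under 50 in H2A.Z.1 cells after background subtraction. The median raw local background was 30 (H2A.Z.1) and 28.5 (R80C), values that are not to be set directly against subtracted signals. No paired analysis was possible because each group holds 1 array, and no array could be left out.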
